A study of Homo sapiens with 9 samples.

Results

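Bone morphogenetic protein (BMP) signalling through SMAD proteins was examined in HepG2 cells, a human liver cancer cell line, after knockdown of TRIB3. The genes were chosen by symbol: the ligand BMP6, the receptors BMPR1A and BMPR2, the signal-carrying SMAD1 and SMAD5, the inhibitory SMAD6 and SMAD7, and the target genes ID1, ID2 and ID3. All 10 were found among the 24204 gene symbols of the expression table. RNA sequencing covered 9 libraries, with 3 each from cells given a lentivirus with Control shRNA (shCtrl), TRIB3 sh1 (shTRIB3-1) or TRIB3 sh2 (shTRIB3-2). All cells were grown in high-glucose DMEM with 10% fetal bovine serum, infected for 48 h and then kept in puromycin for 48 h, so virus and puromycin were common to the 3 groups. The puromycin-resistant cells of each infection were used without cloning as far as the labels tell, and each group carried a single hairpin sequence.

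BMP ligands bind a complex of type I and type II serine/threonine kinase receptors. The type I receptor phosphorylates SMAD1, SMAD5 and SMAD9, which join SMAD4, enter the nucleus and raise transcription of targets such as the ID genes and the inhibitory SMAD6 and SMAD7. In hepatocytes the pathway controls HAMP, which encodes the iron hormone hepcidin, and BMP6 from liver endothelial cells is its main ligand in the iron response. ID proteins are helix-loop-helix factors without a DNA-binding region that hold E proteins away from DNA. TRIB3 encodes a pseudokinase induced by amino acid shortage and endoplasmic reticulum stress, and it has been reported to act on the BMP pathway through the type II receptor and the ubiquitin ligase SMURF1.

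The knockdown was checked first, and the hairpin target sequences are shown because each comparison rests on them. Both are printed 5′ to 3′ along the plus strand of GRCh38.
shTRIB3-1 target: tggatgacaacttagataccg
shTRIB3-2 target: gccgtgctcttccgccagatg
The shTRIB3-1 target lies at chr20:388072-388092 in coding sequence of exon 2 of 4 of TRIB3, and the shTRIB3-2 target at chr20:391473-391493 in coding sequence of exon 3 of 4. Among annotated transcripts, TRIB3 was the only gene with an exact match to either target, so no gene of the pathway set carried a full-length match. Shorter or partial matches were not searched, so silencing of other genes through them was not tested. TRIB3 measured 67.9, 65.8 and 66.6 FPKM (fragments scaled for gene length and for the fragment total of the library) in the shCtrl libraries. It measured 34.1, 32.7 and 34.0 FPKM in the shTRIB3-1 libraries and 20.6, 20.7 and 20.4 FPKM in the shTRIB3-2 libraries. The groups did not overlap, and TRIB3 RNA stood at 50.3% of the control mean with shTRIB3-1 and 30.8% with shTRIB3-2. The hairpins therefore differed in depth of knockdown, with a log2 difference of -0.71 ± 0.0301 (SE, n = 3 per group, limma adjusted p = 9.54e-09) for shTRIB3-2 against shTRIB3-1.

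Totals ran from 34206726 to 36311029 fragments per library, so depth differed by at most 1.06 times. The 13 mitochondrial coding genes took 5.3% to 6.1% of fragments in shCtrl, 6.29% to 7.01% in shTRIB3-1 and 6.52% to 7.22% in shTRIB3-2. All 8 hepatocyte markers were above 1 FPKM in each group, and their summed level was 8234 to 8872 FPKM in shCtrl, 8463 to 8890 FPKM in shTRIB3-1 and 10646 to 10958 FPKM in shTRIB3-2. Most of that sum was ALB, at means of 5213, 5073 and 6645 FPKM, so it hid moves of other markers. From shCtrl to shTRIB3-1, mean FPKM fell for APOB (840 to 678), SERPINA1 (1012 to 746), FGB (196 to 103) and HNF4A (46.7 to 39.8). It rose for APOA1 (1125 to 1738) and TTR (27.9 to 59.2), while ALB and AFP overlapped the controls. Stellate and fibroblast markers summed to at most 0.19 FPKM in any library. Blood and Kupffer cell markers summed to 29.8 to 36.1 FPKM in shCtrl, 36.2 to 39.3 FPKM in shTRIB3-1 and 32.5 to 34.7 FPKM in shTRIB3-2, almost wholly from the lysosomal gene CD68, and the leukocyte marker PTPRC was at a mean of 0.00149 FPKM or less. RNA from fewer cells of a kind and less RNA per cell cannot be told apart in bulk libraries.

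In the control cells the 3 ID genes were the most abundant of the set, and SMAD6 the least. Log2 fold changes were taken on log2(FPKM + 0.1), and a gene was tested when it reached 1 FPKM in at least 3 of 9 libraries, which 9 of the 10 genes did. SMAD6 reached it in 2 libraries, and its tests below come from a fit with no filter. With shTRIB3-1, 2 of the 9 tested genes were higher (BMPR2 and ID2) and 4 were lower (SMAD1, SMAD5, ID1 and ID3) at an adjusted p under 0.05. Across all 11265 tested genes, 32.9% were called higher and 41.5% lower in that comparison. The balance of all calls depended on scaling, with 44.2% of the calls higher with shTRIB3-1 and 46.7% with shTRIB3-2, against 52.9% and 51.6% when each library was centred on its median. When each library was rescaled to the same sum over all genes (TPM), the count became 1 higher and 5 lower, because ID2 no longer passed and BMPR1A did. With shTRIB3-2, only BMPR2 was higher and 7 were lower (BMP6, SMAD1, SMAD5, SMAD7, ID1, ID2 and ID3), against 35.4% higher and 40.5% lower among all tested genes. Calls with an absolute log2 fold change above 1 were fewer: SMAD5 alone with shTRIB3-1, where 11.5% of all tested genes passed, and SMAD5 and ID1 with shTRIB3-2, where 12.3% passed. SMAD6 dropped out because it was near 1 FPKM in shCtrl (0.887, 1.11 and 1.04 FPKM) and lower after knockdown. These counts therefore describe the tested genes and not the whole set. The plot of levels by library shows the values behind these counts.

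**Figure D1:**
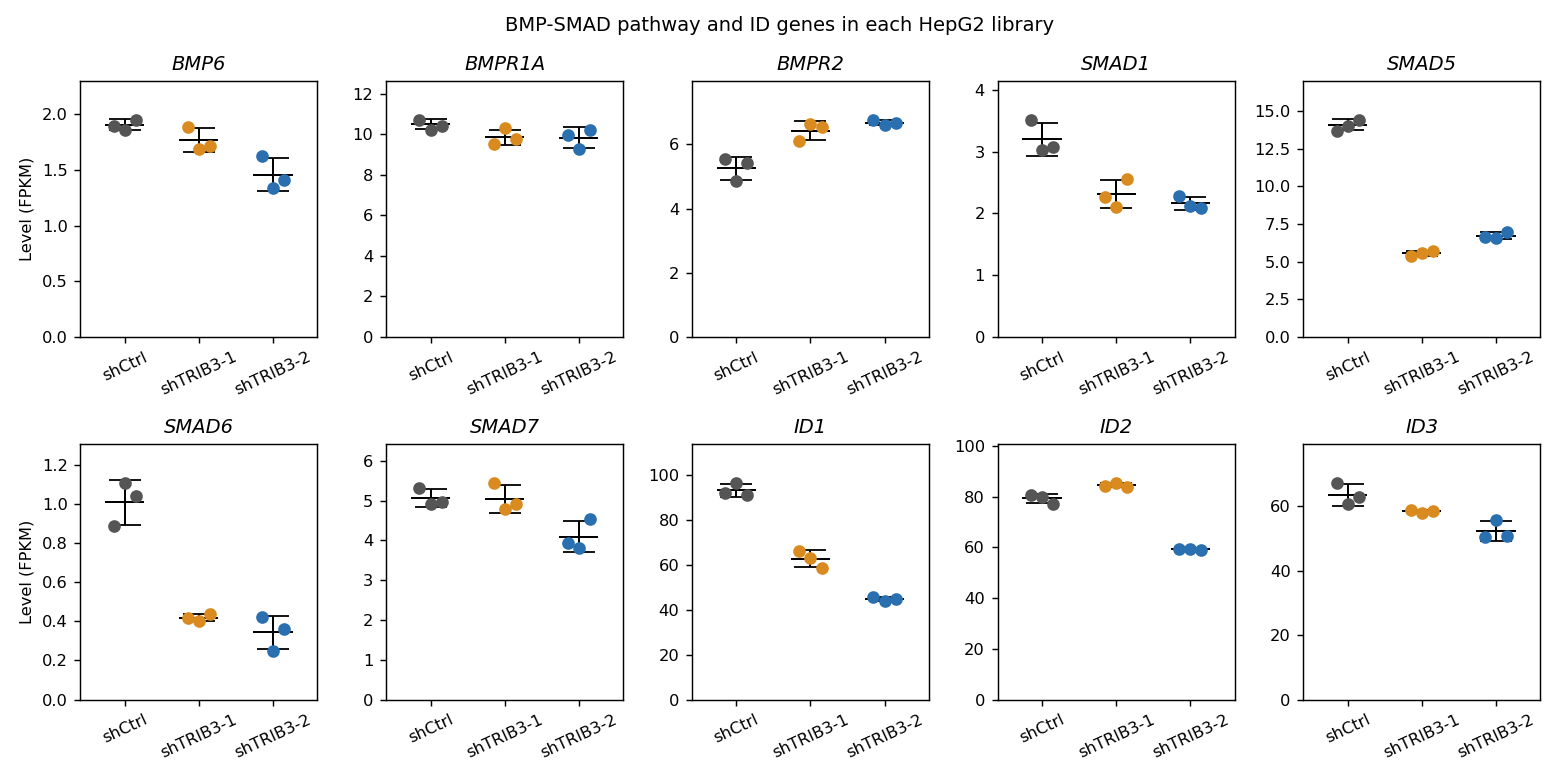
Level in FPKM (vertical axes, each from 0) of the 10 genes in the 3 libraries of each group (horizontal axes), with points for libraries and black bars for the mean and SD (n = 3). SMAD5 sat between 13.7 and 14.4 FPKM in shCtrl and between 5.38 and 6.96 FPKM in the 6 knockdown libraries, and ID1 stepped down from group to group.

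The hairpins were also compared directly. Of the 9 tested genes, SMAD5 was higher with shTRIB3-2 than with shTRIB3-1 and 5 were lower (BMP6, SMAD7, ID1, ID2 and ID3), while 25.1% of all tested genes were higher and 20.7% lower. No gene of the set passed with an absolute log2 difference above 1, which 2.08% of all tested genes did. The 3 comparisons share libraries and are not independent of each other.

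BMP6 (chr6:7726099-7881728, plus strand of GRCh38, as all gene positions here) encodes the ligand that sets hepcidin production. Its level was low, at 1.90, 1.86 and 1.95 FPKM in shCtrl. The shTRIB3-1 libraries gave 1.89, 1.69 and 1.72 FPKM and the shTRIB3-2 libraries 1.63, 1.34 and 1.41 FPKM, from 177 to 265 fragments per library. The shTRIB3-1 libraries overlapped the controls, and the shTRIB3-2 libraries lay below all others. BMP6 fell by 0.37 on the log2 scale with shTRIB3-2 (SE 0.0951, adjusted p = 0.0039), whereas the change with shTRIB3-1 was -0.11 with a 95% confidence interval from -0.31 to 0.10 (adjusted p = 0.33). The direct difference between hairpins was -0.26 (adjusted p = 0.0418), and it lost its call on leaving out 8 of the 9 libraries in turn (adjusted p from 0.0532 to 0.14). Of 6 endothelial markers, none reached a mean of 1 FPKM in shCtrl and only LYVE1 did after knockdown, at 6.57 to 6.80 FPKM with shTRIB3-1 and 3.08 to 3.31 FPKM with shTRIB3-2. The endothelial sum was 0.603 to 0.784 FPKM in shCtrl, 6.83 to 7.01 FPKM in shTRIB3-1 and 3.37 to 3.63 FPKM in shTRIB3-2, while KDR was at 0 in shCtrl and CDH5 and STAB2 stayed below 0.005 FPKM on average in every group. Exons of BMP6 overlap an antisense gene, TXNDC5, over 5.6% of their length, and its part in the BMP6 values was not tested.

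BMPR1A (chr10:86756596-86932825) encodes a type I receptor, the kinase that phosphorylates SMAD1 and SMAD5. It measured 10.7, 10.2 and 10.4 FPKM in shCtrl, 9.53, 10.3 and 9.76 FPKM in shTRIB3-1 and 9.97, 9.26 and 10.2 FPKM in shTRIB3-2. The 3 groups overlapped. The log2 change was -0.09 with each hairpin, with intervals from -0.19 to 0.02 for shTRIB3-1 (adjusted p = 0.127) and from -0.20 to 0.02 for shTRIB3-2 (adjusted p = 0.109).

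BMPR2 (chr2:202376327-202567751) encodes the type II receptor that activates type I receptors. Its shCtrl libraries gave 5.53, 4.85 and 5.42 FPKM. The shTRIB3-1 libraries gave 6.10, 6.64 and 6.55 FPKM and the shTRIB3-2 libraries 6.76, 6.60 and 6.67 FPKM. Every knockdown library was above every control library, and the knockdown groups overlapped each other. BMPR2 rose by 0.29 ± 0.0596 (SE, adjusted p = 8.98e-04) with shTRIB3-1 and by 0.34 ± 0.0596 (adjusted p = 2.25e-04) with shTRIB3-2 on the log2 scale. The ratio of BMPR2 to BMPR1A within a library, which no scaling of libraries can move, went from 0.474 to 0.518 in shCtrl up to 0.64 to 0.671 in shTRIB3-1 and 0.651 to 0.713 in shTRIB3-2.

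SMAD5 (chr5:136132845-136188747), a receptor-activated SMAD, had the largest fall of the tested genes of the set with shTRIB3-1. It measured 13.7, 14.0 and 14.4 FPKM in shCtrl, 5.38, 5.57 and 5.68 FPKM in shTRIB3-1 and 6.66, 6.57 and 6.96 FPKM in shTRIB3-2, from 1491 to 4177 fragments per library. The 3 groups were separate, with shTRIB3-1 the lowest. SMAD5 fell by 1.33 on the log2 scale with shTRIB3-1 (SE 0.0453, adjusted p = 1.29e-10) to 39.5% of the control mean, and by 1.05 with shTRIB3-2 (SE 0.0453, adjusted p = 7.31e-10) to 47.9%. By absolute size, 6.48% of all tested genes changed as much or more with shTRIB3-1 and 11.3% with shTRIB3-2. The gap between hairpins was 0.28 ± 0.0453 (SE, adjusted p = 4.15e-04), with SMAD5 lower with shTRIB3-1, the hairpin that left more TRIB3 RNA. An effect of the hairpin and of the depth of knockdown cannot be told apart. Exons of SMAD5 overlap SMAD5-AS1 on the other strand over 6.75% of their length, so a share of its fragments could belong to that gene if counting ignored strand.

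SMAD1 (chr4:145481194-145559176), the close relative of SMAD5 with the same role, stood below SMAD5 in every group. It measured 3.51, 3.02 and 3.07 FPKM in shCtrl, 2.27, 2.11 and 2.55 FPKM in shTRIB3-1 and 2.28, 2.12 and 2.08 FPKM in shTRIB3-2. All knockdown libraries lay below all controls, and the knockdown groups overlapped. SMAD1 fell by 0.45 with shTRIB3-1 (SE 0.09, adjusted p = 6.15e-04) and by 0.54 with shTRIB3-2 (adjusted p = 1.42e-04) on the log2 scale. Exons of SMAD1 overlap SMAD1-AS1 on the other strand over 5.3% of their length. SMAD9, the remaining BMP-activated SMAD, belongs to the wider list and stayed under the filter. It gave 0.706 to 0.884 FPKM in shCtrl, 0.278 to 0.348 FPKM in shTRIB3-1 and 0.168 to 0.256 FPKM in shTRIB3-2, and in the fit with no filter it fell by 1.13 (adjusted p = 6.17e-04) and 1.49 (adjusted p = 1.02e-04) on the log2 scale. The summed level of SMAD1, SMAD5 and SMAD9 was 17.9 to 18.4 FPKM in shCtrl, 7.96 to 8.58 FPKM in shTRIB3-1 and 8.86 to 9.29 FPKM in shTRIB3-2, most of it SMAD5.

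SMAD4, the partner shared with transforming growth factor beta (TGF-beta) signalling, gave another picture. It measured 8.35, 8.44 and 8.15 FPKM in shCtrl, 7.90, 7.82 and 8 FPKM in shTRIB3-1 and 9.25, 9.14 and 9.15 FPKM in shTRIB3-2. The log2 change was -0.07 in shTRIB3-1 libraries (adjusted p = 0.128) and 0.14 in shTRIB3-2 libraries (adjusted p = 0.00641). The SMAD5 to SMAD4 ratio within a library went from 1.64 to 1.77 in shCtrl down to 0.681 to 0.712 in shTRIB3-1 and 0.719 to 0.761 in shTRIB3-2.

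SMAD6 (chr15:66702236-66782849) encodes an inhibitory SMAD that blocks BMP receptors and is itself a BMP target. It measured 0.887, 1.11 and 1.04 FPKM in shCtrl, 0.42, 0.403 and 0.437 FPKM in shTRIB3-1 and 0.421, 0.251 and 0.36 FPKM in shTRIB3-2. These values rest on 269 to 342 fragments per control library and 74 to 129 per knockdown library, and no knockdown library reached a control library. In the fit with no filter, SMAD6 fell by 1.09 with shTRIB3-1 (SE 0.177, adjusted p = 9.43e-04) and by 1.34 with shTRIB3-2 (SE 0.177, adjusted p = 2.54e-04) on the log2 scale. The difference between hairpins was -0.25, with an interval from -0.65 to 0.16 (adjusted p = 0.412).

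SMAD7 (chr18:48919853-48950965, minus strand) encodes the inhibitory SMAD that acts on both BMP and TGF-beta receptors. It measured 5.32, 4.91 and 4.97 FPKM in shCtrl, 5.45, 4.8 and 4.91 FPKM in shTRIB3-1 and 3.93, 3.81 and 4.54 FPKM in shTRIB3-2. The shTRIB3-1 libraries overlapped the controls and the shTRIB3-2 libraries lay below both. SMAD7 fell by 0.31 on the log2 scale with shTRIB3-2 (SE 0.0762, adjusted p = 0.003), while the change with shTRIB3-1 was -0.01 with an interval from -0.17 to 0.16 (adjusted p = 0.955). The direct difference between hairpins was -0.30 ± 0.0762 (SE, adjusted p = 0.00692). SMAD7 exceeded SMAD6 by 4.42 to 6 times in the control libraries, by 11.2 to 13 times in shTRIB3-1 and by 9.34 to 15.2 times in shTRIB3-2.

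The SMAD6 promoter is shown because it held an exact SMAD palindrome and its gene fell with both hairpins. It is the window of 250 bases before the transcription start, chr15:66701986-66702235 on the plus strand (RefSeq, GRCh38.p14), with the palindrome GTCTAGAC in capitals.
SMAD6 promoter: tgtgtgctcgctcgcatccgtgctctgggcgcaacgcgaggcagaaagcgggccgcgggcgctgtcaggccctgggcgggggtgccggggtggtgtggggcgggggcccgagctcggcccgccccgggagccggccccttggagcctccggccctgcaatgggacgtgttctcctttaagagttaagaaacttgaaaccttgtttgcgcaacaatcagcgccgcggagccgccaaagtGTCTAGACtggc
The palindrome began 12 bases before the start. Because the window was picked by the string and the fall together, it cannot show a link between them, and none was tested. GTCTAGAC reads the same on both strands and was found in 64 of 35116 RefSeq windows of that length (0.182%). The shorter BMP element GGCGCC, also its own reverse complement, was found in 5752 windows (16.4%). Of the 10 genes, all with a RefSeq window, SMAD6 alone held the palindrome and 2 held GGCGCC. These were BMPR2, at 147 bases before the start, and SMAD1, nearest at 93 bases. SMAD1 has more than a single start, and only some of its windows held GGCGCC. The shares above are per window and these counts are per gene, so they are not directly comparable. BMPR2 rose while SMAD1 fell. The windows of ID1, ID2, ID3, SMAD7, SMAD5, BMP6 and BMPR1A held neither string of letters, and enhancers outside the windows were not searched.

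ID1 (chr20:31605283-31606515), a classical BMP target gene, was the most abundant of the set in control cells. It measured 92.0, 96.5 and 90.9 FPKM in shCtrl, 66.2, 63.1 and 58.6 FPKM in shTRIB3-1 and 45.7, 43.9 and 44.6 FPKM in shTRIB3-2, from 1865 to 4280 fragments per library. The 3 groups were separate. ID1 fell by 0.57 with shTRIB3-1 (SE 0.0429, adjusted p = 1.28e-07) to 67.2% of control and by 1.06 with shTRIB3-2 (SE 0.0429, adjusted p = 4.30e-10) to 48% on the log2 scale. The difference between hairpins was -0.48 ± 0.0429 (SE, adjusted p = 3.44e-06). As much change or more was seen in 27.4% of all tested genes with shTRIB3-1 and in 11.2% with shTRIB3-2.

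ID2 (chr2:8678845-8684461) moved in opposite directions with the hairpins. It measured 80.8, 79.7 and 77.3 FPKM in shCtrl, 84.4, 85.5 and 84.0 FPKM in shTRIB3-1 and 59.5, 59.5 and 59.1 FPKM in shTRIB3-2. All shTRIB3-1 libraries were above the controls and all shTRIB3-2 libraries below them. The rise with shTRIB3-1 was small, 0.09 ± 0.0275 on the log2 scale (SE, adjusted p = 0.00789), and under rescaling to TPM it was 0.040 and lost its call (adjusted p = 0.263). The fall with shTRIB3-2 was 0.42 on that scale (-0.42 ± 0.0275, adjusted p = 3.47e-08). The direct difference between hairpins was -0.51 ± 0.0275 (SE, adjusted p = 6.67e-08). Exons of ID2 overlap ID2-AS1 on the other strand over 6.55% of their length.

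ID3 (chr1:23557926-23559501, minus strand) changed least of the 3 with shTRIB3-2. It measured 67.2, 60.5 and 62.8 FPKM in shCtrl, 58.6, 57.8 and 58.5 FPKM in shTRIB3-1 and 50.3, 55.8 and 50.6 FPKM in shTRIB3-2. The groups did not overlap, although the lowest control library, at 60.5 FPKM, was close to the shTRIB3-1 libraries. ID3 fell by 0.28 with shTRIB3-2 (SE 0.0461, adjusted p = 1.29e-04) and by 0.12 with shTRIB3-1 (SE 0.0461, adjusted p = 0.0307). The call with shTRIB3-1 was lost with each library centred on its median (-0.042, adjusted p = 0.526), with no filter (adjusted p = 0.0771) and on leaving out shCtrl replicate 1 (-0.080, adjusted p = 0.125) or any single shTRIB3-1 library (adjusted p from 0.055 to 0.0735).

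**Figure D2:**
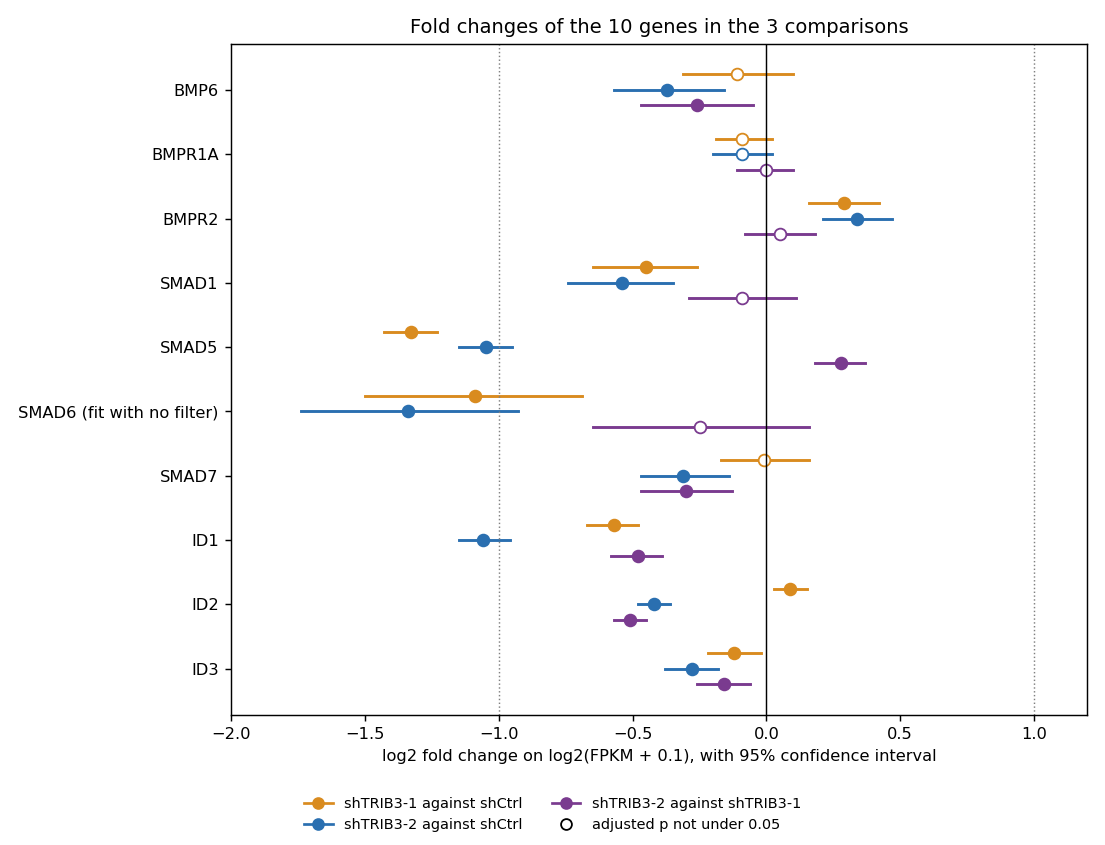
Log2 fold change on log2(FPKM + 0.1) (horizontal axis) of the 10 genes (vertical axis) in the 3 comparisons, with points for estimates and lines for 95% confidence intervals (n = 3 per group). Open points mark an adjusted p not under 0.05. SMAD5, SMAD6 and ID1 reach furthest to the left and BMPR2 alone lies to the right with both hairpins.

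The order of levels within the ID family was not the same in the groups. In shCtrl it was ID1, ID2 and ID3, with no overlap between neighbours. In shTRIB3-1 ID2 came first, and ID1 (58.6 to 66.2 FPKM) and ID3 (57.8 to 58.6 FPKM) overlapped. In shTRIB3-2 the order was ID2, ID3 and ID1, again with no overlap. The ratio of ID1 to ID2 within a library was 1.14 to 1.21 in shCtrl, 0.697 to 0.784 in shTRIB3-1 and 0.737 to 0.767 in shTRIB3-2, so it was alike with both hairpins although the level of each gene was not. The ratio of ID1 to ID3 stepped from 1.37 to 1.6 in shCtrl through 1 to 1.13 in shTRIB3-1 to 0.786 to 0.908 in shTRIB3-2. The summed level of the 3 genes was 231 to 240 FPKM in shCtrl, 201 to 209 FPKM in shTRIB3-1 and 154 to 159 FPKM in shTRIB3-2. ID4, the remaining family member, was near the limit of detection, with 18 to 39 fragments per shCtrl library and 4 to 13 per knockdown library.

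Among the other genes, SMAD5 and BMPR1A changed places. SMAD5 ranked above BMPR1A in every shCtrl library, whereas after knockdown it fell among BMPR2 and SMAD7, overlapping SMAD7 with shTRIB3-1 and BMPR2 with shTRIB3-2. SMAD1, BMP6 and SMAD6 held the last 3 places in that order in each group without overlap. In shCtrl, BMPR2 and SMAD7 overlapped and no other neighbours did.

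**Figure D3:**
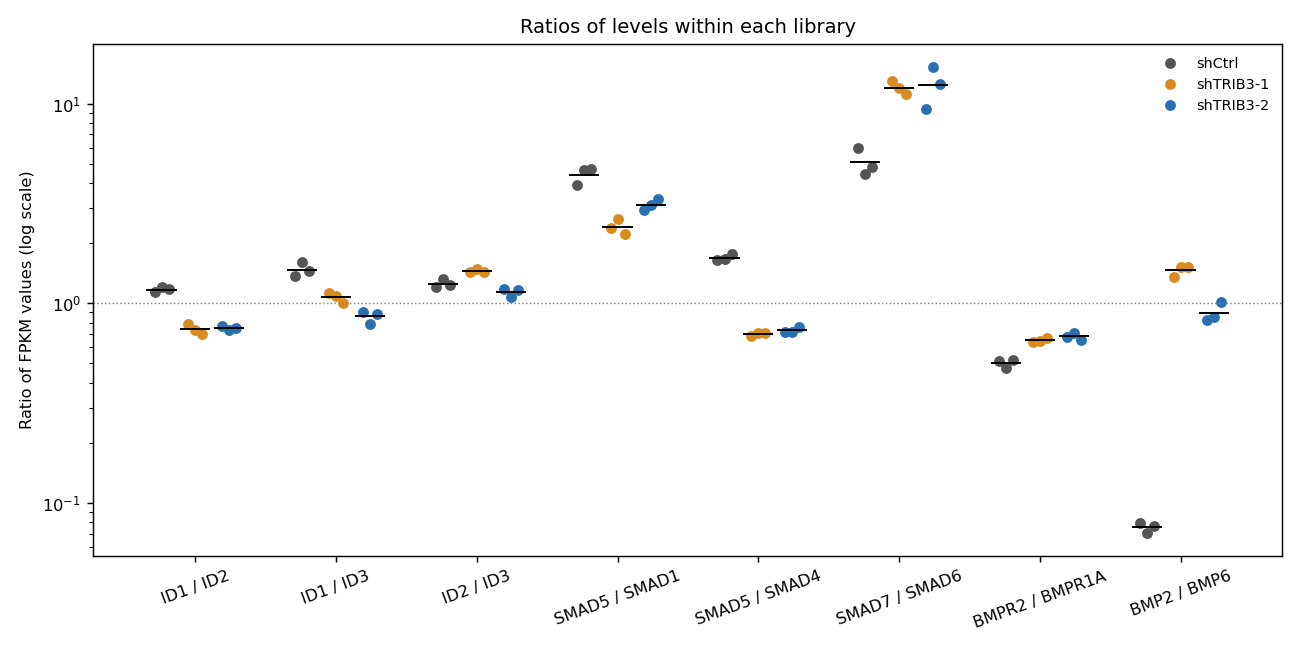
Ratio of 2 FPKM values from the same library (vertical axis, log scale) for 8 gene pairs (horizontal axis), with points for libraries and black bars for group means (n = 3). The ID1 to ID2 and SMAD5 to SMAD4 ratios cross 1 between shCtrl and both knockdown groups, and the BMP2 to BMP6 ratio moves furthest.

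HAMP, the hepatic target of the pathway, was followed beside the set. It measured 16.6, 16.6 and 16.2 FPKM in shCtrl, 0.864, 0.862 and 0.354 FPKM in shTRIB3-1 and 0.936, 0.637 and 0.702 FPKM in shTRIB3-2. These are 235 to 244 fragments per control library and 5 to 13 per knockdown library. HAMP stood at 4.22% of control with shTRIB3-1 and 4.61% with shTRIB3-2, a fall by 4.46 (SE 0.239, adjusted p = 6.18e-09) and by 4.28 (SE 0.239, adjusted p = 7.42e-09) on the log2 scale. All 6 knockdown libraries were under 1 FPKM, so HAMP passed the filter only through shCtrl, where it was high. The hairpins did not differ detectably at 5 to 13 fragments (log2 difference 0.18, interval from -0.34 to 0.70, adjusted p = 0.569).

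The HAMP promoter is printed because it carries the BMP element through which SMADs are known to act in hepatocytes. The window is the 250 bases before the start, chr19:35282278-35282527 on the plus strand (RefSeq, GRCh38.p14), with GGCGCC in capitals.
HAMP promoter: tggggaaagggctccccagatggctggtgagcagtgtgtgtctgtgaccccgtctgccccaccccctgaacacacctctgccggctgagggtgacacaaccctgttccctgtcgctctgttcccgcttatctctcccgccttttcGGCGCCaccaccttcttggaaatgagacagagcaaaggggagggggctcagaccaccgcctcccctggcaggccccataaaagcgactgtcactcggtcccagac
The element began 105 bases before the start. SMAD6 had no GGCGCC in its window, and HAMP no GTCTAGAC.

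The rest of the pathway was read from a list of 80 ligands, receptors, co-receptors, SMADs, inhibitors, targets and ID partners, of which 78 were in the table and 48 were tested. With shTRIB3-1, 20 were higher, 15 lower and 13 did not pass, beside 32.9% higher and 41.5% lower among all tested genes. The split was 17 higher and 18 lower under TPM and 22 higher and 11 lower under median centring, so its direction depended on scaling. With shTRIB3-2, 25 were higher, 18 lower and 5 did not pass, beside 35.4% higher and 40.5% lower among all tested genes. The filter shaped these counts: BMP2 and INHBB passed it only through the knockdown libraries, where they were high, and SMAD9 and ID4, which fell from under 1 FPKM, were left out. The median log2 fold change was 0.038 with shTRIB3-1 and 0.132 with shTRIB3-2, against -0.056 and -0.035 over all tested genes. Between hairpins, 15 were higher and 9 lower with shTRIB3-2 and 24 did not pass, beside 25.1% higher and 20.7% lower among all tested genes. The counts by role that follow are descriptions of the tested genes with the same all-gene shares behind them (for shTRIB3-1, 32.9% rising and 41.5% falling, and for shTRIB3-2, 35.4% rising and 40.5% falling), and nothing particular to a role is read from them.

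Among 9 tested genes listed with the ligands, which include the protease BMP1, 6 rose with each hairpin, 1 fell with shTRIB3-1 and 2 fell with shTRIB3-2. BMP2, a ligand of the same receptors as BMP6, gave 0.150, 0.132 and 0.150 FPKM in shCtrl (17 to 19 fragments), 2.55, 2.57 and 2.6 FPKM in shTRIB3-1 and 1.34, 1.15 and 1.42 FPKM in shTRIB3-2. All knockdown libraries were far above the controls, with log2 changes of 3.46 ± 0.12 (SE, adjusted p = 1.53e-10) and 2.52 ± 0.12 (SE, adjusted p = 1.78e-09). BMP2 passed the filter only through the knockdown libraries, where it was high. BMP6 exceeded BMP2 in each control library, where the BMP2 to BMP6 ratio was 0.0709 to 0.0789. That ratio was 1.35 to 1.52 in shTRIB3-1 and 0.82 to 1.01 in shTRIB3-2. BMP4, another BMP ligand, was more abundant than both in every group. It gave 25.4 to 28.8 FPKM in shCtrl, 26.8 to 30 FPKM in shTRIB3-1 and 24.2 to 25.8 FPKM in shTRIB3-2. BMP4 did not pass with shTRIB3-1 (log2 change 0.09, adjusted p = 0.137) or shTRIB3-2 (-0.09, adjusted p = 0.165).

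The other genes of that group past an absolute log2 fold change of 1 were of several kinds. INHBB, an activin subunit, rose from 0.55 to 0.654 FPKM in shCtrl to 3.04 to 3.43 FPKM in shTRIB3-1 and 2.54 to 3.07 FPKM in shTRIB3-2 (log2 changes 2.24 and 2.05). Like BMP2, INHBB passed the filter only through the knockdown libraries. BMP8B rose by 0.99 and 1.52, and GDF15, a stress-induced secreted factor, by 0.81 and 1.24. BMP1, a protease that frees ligands from the antagonist chordin, rose by 1.02 and 1.34. INHBC, another activin subunit made in liver, fell by 1.05 with shTRIB3-1 and by 0.59 with shTRIB3-2. Every one of these changes had an adjusted p of 2.46e-05 or less.

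Among 7 tested receptors, 2 rose and 3 fell with shTRIB3-1, and 4 rose and 2 fell with shTRIB3-2. ACVR1, a type I receptor that BMP6 also uses, went from 6.67 to 7.20 FPKM in shCtrl to 12.8 to 13.5 FPKM in shTRIB3-1 and 14.4 to 15.3 FPKM in shTRIB3-2 (log2 changes 0.91 and 1.09). TGFBR2, the TGF-beta type II receptor, rose from 66.4 to 69.1 FPKM in shCtrl to 138 to 139 FPKM and 135 to 141 FPKM (1.03 and 1.02). TGFBR3, an accessory receptor that also binds BMPs, fell from 17.5 to 18.8 FPKM in shCtrl to 5.90 to 6.45 FPKM and 5.78 to 7.26 FPKM (-1.56 and -1.44). Thus ACVR1 and BMPR2 rose, TGFBR3 fell and BMPR1A did not pass the test.

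Of 6 tested co-receptors and iron sensors, 4 fell and 1 rose with shTRIB3-1, and 5 fell and 1 rose with shTRIB3-2. HFE, which joins the receptor complex in iron sensing, fell by 0.67 and 0.58, and RGMB, a BMP co-receptor, by 0.49 and 0.54 on the log2 scale. TFR2, a second iron sensor, fell by 0.59 with shTRIB3-1 and by 0.26 with shTRIB3-2. ENG, a co-receptor best known from endothelium, was the gene that rose (0.60 and 0.69). HJV, the hepatic co-receptor for BMP6, had group means of 0.0451 to 0.0605 FPKM, under the filter, and did not pass in the fit with no filter (-0.06, adjusted p = 0.897, and -0.14, adjusted p = 0.723).

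Of 13 tested inhibitors, 9 rose and 2 fell with each hairpin. FSTL3, a secreted antagonist of activins, rose from 5.07 to 5.92 FPKM in shCtrl to 20.2 to 20.3 FPKM in shTRIB3-1 and 23 to 24.7 FPKM in shTRIB3-2 (log2 changes 1.85 and 2.09). SMURF1, the ubiquitin ligase for SMAD1 and SMAD5, rose by 0.74 and 0.66, and its relative SMURF2 by 0.82 and 0.76. TOB1 and LEMD3, which restrain SMAD-driven transcription, fell by 0.63 and 0.46 with shTRIB3-1 and by 0.47 and 0.54 with shTRIB3-2. The secreted antagonist NOG was at 0 in shCtrl and shTRIB3-2.

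Among tested targets other than the ID genes, HAMP, GATA2 and HEY1 fell with both hairpins, HEY1 close to the threshold with shTRIB3-1 (adjusted p = 0.0489), and MSX1 rose with shTRIB3-1 (0.69) and fell with shTRIB3-2 (-0.12, adjusted p = 0.0315). Of 5 tested ID partners, 2 fell with shTRIB3-1, and 3 fell and 1 rose with shTRIB3-2. TCF3, an E protein that ID proteins bind, fell by 0.11 and 0.34, whereas the E protein TCF12 had a log2 change of 0.02 with shTRIB3-1 (adjusted p = 0.739) and rose by 0.14 with shTRIB3-2.

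**Figure D4:**
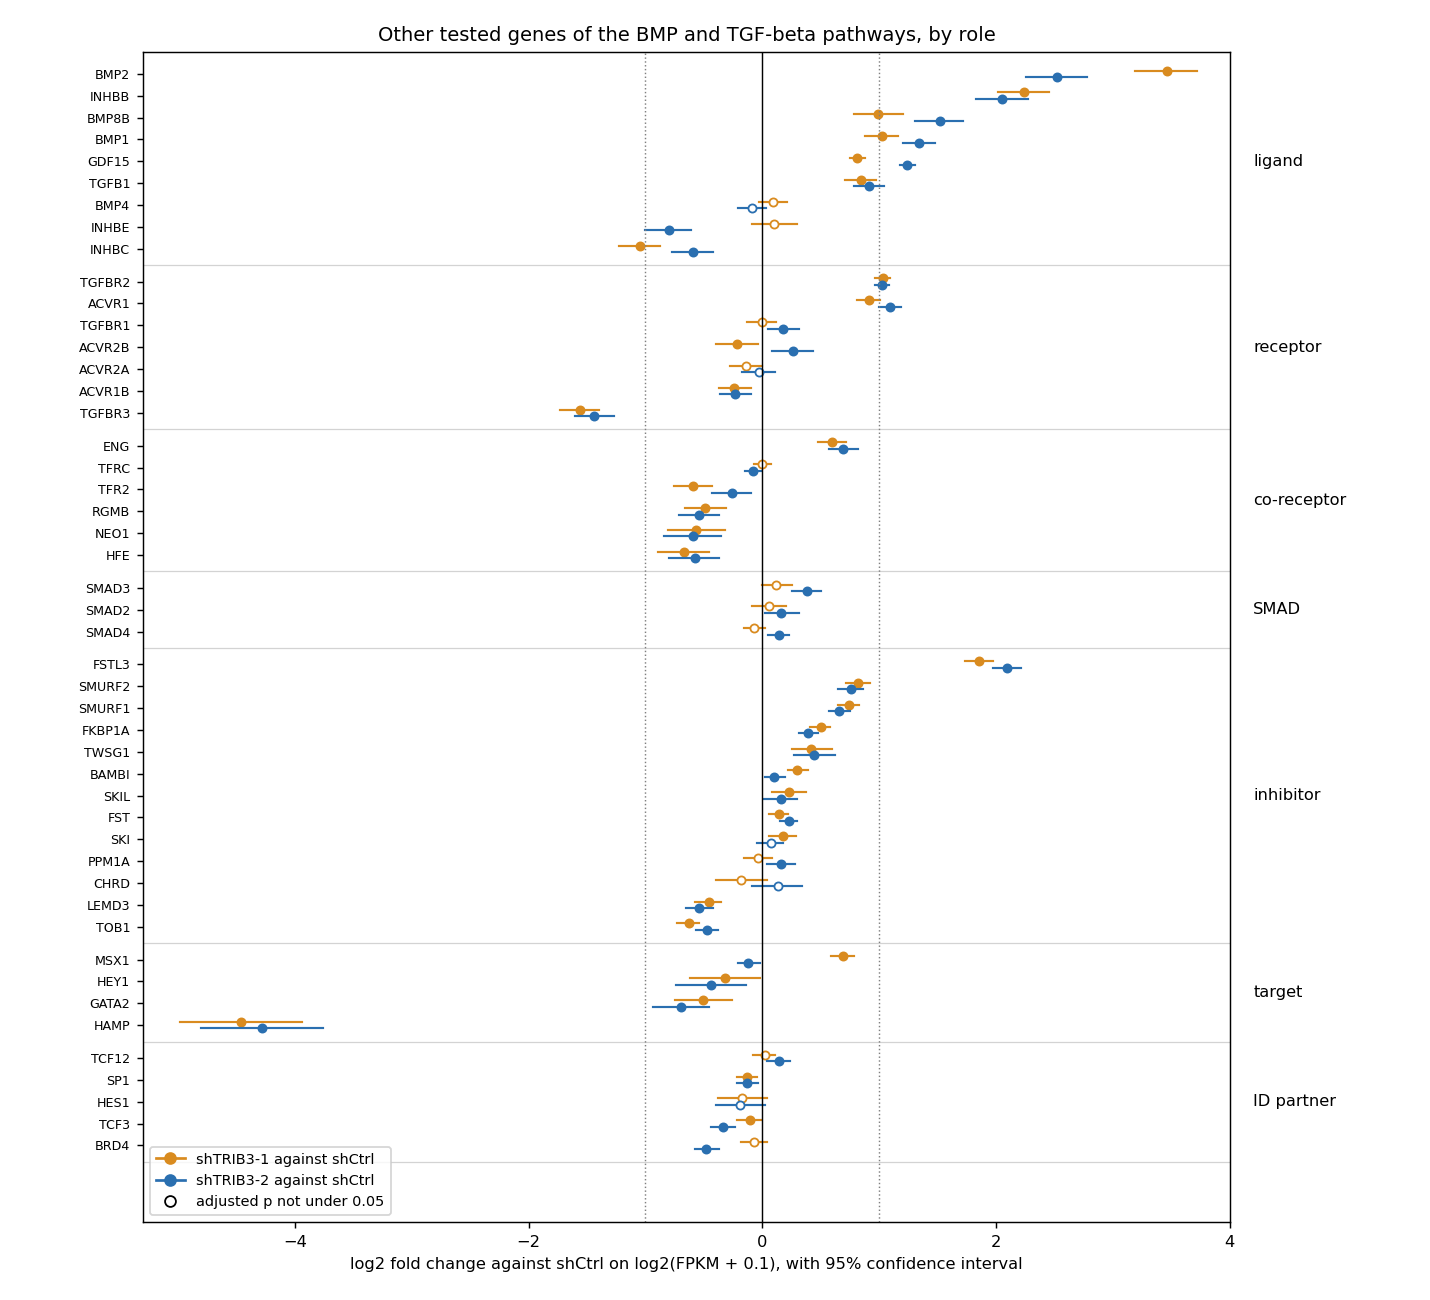
Log2 fold change against shCtrl on log2(FPKM + 0.1) (horizontal axis) of the tested genes of the wider list that are reported here (vertical axis), ordered by role, with points for estimates and lines for 95% confidence intervals (n = 3 per group). Open points mark an adjusted p not under 0.05. BMP2, INHBB and FSTL3 lie furthest to the right and HAMP furthest to the left.

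The genes whose fold changes lay nearest to those of ID1 were sought over the pair of comparisons with shCtrl, by Euclidean distance among all 11265 tested genes. The nearest was IQCC (distance 0.017), followed by FHOD1 (0.039), LOC730183 (0.050), FBL (0.056) and ITGB3BP (0.057). FBL, the nucleolar methyltransferase fibrillarin, fell by 0.57 and 1.11 on the log2 scale, and no other gene of the BMP set was among the 5. These distances are about the size of the SE of the ID1 fold changes (0.0429), so the order is not settled. Only 9 of the 11265 tested genes belong to the set, so nothing is read from its absence among the 5.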

How the data were processed

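Total RNA of 9 HepG2 libraries was sequenced as paired ends. By the study's methods the authors aligned reads to GRCh38 with STAR and tested with DESeq2; the submitters' processing notes name HTSeq and R 3.2.0. The annotation and whether counting used strand are not given in the sources used here. The labels name a VAHTS library kit and high-glucose medium with serum, whereas the methods describe a strand-specific NEBNext kit and glutamine-deprived cells, so the medium at harvest is uncertain. The authors deposited FPKM per gene symbol, which does not correct for changes in composition.

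Whole fragment numbers within 0.02 were worked back from the FPKM values for all 24204 genes and gave the depth of 34206726 to 36311029 fragments per library. Replicates differed by more than sampling noise (chi-square per degree of freedom from 3.13 to 7.54). Fragments carry no molecular identifiers, so they give counting error only. Genes with FPKM of at least 1 in at least 3 of 9 libraries (11265) were tested as log2(FPKM + 0.1), which understates changes of low genes, with limma 3.58.1 in R 4.3.3 (3 group means, 9 libraries, mean-variance trend, two-sided, Benjamini-Hochberg over all tested genes, threshold 0.05). The fit was tested on simulated data. The labels do not say that replicates came from separate cultures, so p-values measure the spread between these libraries, which may be technical.

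The genes, lists and rules were chosen with earlier results of these data known. Named were TRIB3, the 10 genes, HAMP, SMAD4 and tested genes of the list of 80 past the threshold with an absolute log2 fold change above 1 in either comparison with shCtrl; other genes of that list were picked by role after their values were seen, and 1 tested gene of the list is counted but not reported here. Hairpin targets come from the study's supplement, matched to groups by hairpin number and to GENCODE transcripts, and promoters from RefSeq (GRCh38.p14). No protein sequence was used. Alternatives were pseudocount 1, no filter, FPKM of at least 5, median centring, TPM, a replicate block, only the 2 groups compared, limma voom on the fragments, and leaving out each library.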

Additional observations from a re-analysis of the deposited data

Results flagged for a closer look

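By the direct limma test of shTRIB3-2 against shTRIB3-1 over the same 9 libraries, 6 of the 9 tested genes differed between hairpins. On leaving out any single library, 4 to 5 of them did. Among all 11265 tested genes, 25.1% were higher and 20.7% lower with shTRIB3-2, so many genes outside the set differed too. ID2 differed most, with a log2 difference of -0.51 (adjusted p = 6.67e-08), and every shTRIB3-1 library was above and every shTRIB3-2 library below the controls. ID1 differed by -0.48 (adjusted p = 3.44e-06), SMAD7 by -0.30 (adjusted p = 0.00692) and ID3 by -0.16 (adjusted p = 0.0139). BMP6 differed by -0.26 (adjusted p = 0.0418), a call lost in 12 recomputations. SMAD5 was the gene that was higher with shTRIB3-2, by 0.28 (adjusted p = 4.15e-04). TRIB3 itself differed by -0.71 between these groups. Each hairpin is a single sequence, so an effect of the hairpin and of the depth of TRIB3 knockdown cannot be told apart.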

How the results depend on the processing

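The counts of genes past a threshold stayed within 1.5 times of the reported value in 148 of 153 recomputations, directions aside: the wider list with shTRIB3-1 split into 20 higher and 15 lower as reported, 17 and 18 under TPM, and 22 and 11 under median centring. The exceptions followed from fewer or more genes tested, or from values close to a log2 fold change of 1. With FPKM of at least 5, 6 genes of the set were tested and 5 passed with shTRIB3-2 in place of 8, and 23 genes of the wider list passed with shTRIB3-1 in place of 35. With no filter, SMAD6 joined SMAD5 past a log2 fold change of 1 with shTRIB3-1, making 2. With pseudocount 1 and with median centring, 1 gene in place of 2 was past it with shTRIB3-2, since SMAD5 stood at -0.96 with the former and did not exceed the limit with the latter. Leaving out each library in turn gave 5 to 6 genes of the set past the threshold with shTRIB3-1, 8 each time with shTRIB3-2 and 4 to 5, in place of 6, between hairpins. A fall from 6 to 4 genes lay within the margin of 1.5 times. Between hairpins, the count of the set past an absolute log2 difference of 1 was 0 throughout. Leaving out a library outside a comparison cannot move the fold changes of that comparison.

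Directions turned only for genes that had not passed the test. BMPR1A between hairpins was 0.026 under TPM and from -0.035 to 0.037 on leaving out single libraries. SMAD7 with shTRIB3-1 was 0.075 under median centring and from -0.060 to 0.031 on leaving out single libraries. HAMP between hairpins ran from -0.18, without shTRIB3-1 replicate 3, the library with 5 HAMP fragments, to 0.36. Calls were lost in 21 recomputations, 12 of them for BMP6 between hairpins, 6 for ID3 with shTRIB3-1, 2 for ID3 between hairpins and 1 for ID2 with shTRIB3-1, and 1 was gained, for BMPR1A with shTRIB3-1 under TPM (-0.14).

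Deviations of the 9 pairs of same-numbered libraries correlated at r from -0.0742 to 0.0933, so the numbers do not pair the libraries. With a replicate block, 6, 8 and 6 genes of the set passed in the 3 comparisons, as without it, and 38, 43 and 26 genes of the wider list in place of 35, 43 and 24. Few fragments lay behind some values, among them BMP2 in shCtrl (17 to 19), SMAD6 (74 at the lowest), and HAMP after knockdown (5 to 13).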
